A study of Mus musculus with 2 samples.

Results

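Siglecf-positive neutrophils were described here among live CD45+ leukocytes sorted from mouse liver tumours and profiled by droplet single-cell RNA sequencing. A barcode belonged to them when it held at least 200 genes and under 15% mitochondrial UMIs, at least 2 UMIs (unique molecular identifiers, 1 per captured transcript) of Siglecf, at least 2 of the neutrophil genes Csf3r, Hdc, G0s2 and Acod1, fewer than 2 of the eosinophil genes Ccr3, Alox15, Car4, Epx and Prg2, under 10 UMIs of the granule genes Ngp, Camp and Ltf together, and none of Cd3e, Cd79a and C1qa. The members were thus selected on measured UMIs of these 16 genes, whose values are a description only. That left 103 barcodes of 11698, of which 63 of 6610 came from the AKK library and 40 of 5088 from the PBS library. All criteria but the one on Cd3e, Cd79a and C1qa were met by 94 AKK and 72 PBS barcodes, so that criterion removed many. In the AKK library, C57BL/6 mice received live Akkermansia muciniphila, a mucin-degrading gut bacterium, by mouth at 5e9 CFU. In the PBS library, mice received PBS by mouth in its place. Both groups were treated for 2 weeks before a methionine- and choline-deficient (MCD) diet, which produces steatohepatitis, and spent 2 weeks on that diet before luciferase-labelled RIL-175 cells, a mouse hepatocellular carcinoma line, were implanted in the liver. Oral treatment stopped for 6 days after surgery and then resumed in both groups. Each group is 1 library whose number of animals the labels do not give, so no difference between AKK and PBS has a replicate check and none was tested.

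Neutrophils are short-lived granulocytes that leave the bone marrow mature, with preformed granules and high expression of S100a8, S100a9 and Cxcr2, and that change their transcripts further once they enter an inflamed or tumour-bearing tissue. Siglecf encodes a sialic acid-binding lectin with inhibitory cytoplasmic motifs, best known on mouse eosinophils and alveolar macrophages. In mice it also marks a population of aged, tissue-resident neutrophils that was described in lung tumours, where these cells carried tumour-supporting gene products such as Csf1, and it has been found on neutrophils of other inflamed tissues.

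In GRCm38 with GENCODE vM21 gene models, Siglecf, a protein-coding gene, lies at chr7:43351341-43359531 on the plus strand. The genes that stood out beside it are spread over other chromosomes. The trypsinogen gene Prss2 lies at chr6:41521787-41525079 on the plus strand and Ptgs1, which encodes cyclooxygenase 1, at chr2:36230426-36252272 on the plus strand. On the minus strand lie Ltc4s at chr11:50236461-50238616, Csf1 at chr3:107741048-107760469, Il23a at chr10:128296139-128298752 and Gpc3 at chrX:52272426-52613950. The 250 bases before the RefSeq starts of 3 of these genes (build GRCm38.p6, plus strand) are given to show the start regions of the selecting gene and of 2 genes that were higher in the cells it selects. They lie at chr7:43351091-43351340, chr2:36230176-36230425 and chr6:41521526-41521775, and capitals mark GGAAGT, a core bound by PU.1, a transcription factor of myeloid cells.
Siglecf: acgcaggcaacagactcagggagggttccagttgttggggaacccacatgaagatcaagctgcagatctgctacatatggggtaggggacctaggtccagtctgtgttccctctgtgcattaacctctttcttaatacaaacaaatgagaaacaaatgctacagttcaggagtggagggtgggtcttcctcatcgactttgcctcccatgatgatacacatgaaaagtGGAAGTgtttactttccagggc
Ptgs1: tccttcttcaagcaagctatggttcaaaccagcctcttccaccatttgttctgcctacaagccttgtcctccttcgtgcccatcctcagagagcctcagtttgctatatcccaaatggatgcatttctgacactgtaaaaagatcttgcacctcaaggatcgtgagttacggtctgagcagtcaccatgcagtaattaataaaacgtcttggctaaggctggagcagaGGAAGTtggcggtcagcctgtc
Prss2: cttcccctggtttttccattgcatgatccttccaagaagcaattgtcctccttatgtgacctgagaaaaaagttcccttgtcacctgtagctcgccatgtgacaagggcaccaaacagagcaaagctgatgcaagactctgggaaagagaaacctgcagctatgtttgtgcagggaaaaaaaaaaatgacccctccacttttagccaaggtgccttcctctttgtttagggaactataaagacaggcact
Of the 7 genes, 6 had a RefSeq promoter, and 5 motifs were searched on both strands. GGAAGT stood at bases -22 to -17 from the start in both Siglecf and Ptgs1 and at -116 to -111 in Ltc4s, all on the plus strand, and in 19.7% of 32851 RefSeq promoters of that length. The other 4 motifs were in none of the 6 promoters. They were the AP-1 motif TGANTCA, found in 6.75% of all promoters. The E-box of bHLH factors, written CACGTG, was in 6.02% of them. The third was AGATAA, bound by GATA factors and present in 9.99%. The fourth was TTGCNNAA, a C/EBP motif present in 9.56%. A match is a run of letters and no evidence of binding.

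The label was set against cell type markers, a check that is not independent of the selection. The selection required neutrophil genes, and it excluded Cd3e, Cd79a and C1qa, which are among the other cells' markers counted here. Most members held more UMIs of neutrophil markers than of other cells' markers, and a few, mostly deep, barcodes were led by genes of other cells. In 56 of 63 AKK members and 38 of 40 PBS members, UMIs of 11 neutrophil markers outnumbered those of 55 markers of macrophages, monocytes, dendritic cells, T and NK cells, B and plasma cells, mast cells and basophils, and tumour or liver cells. The 7 AKK and 2 PBS members in which the other markers led held 41.5% of the AKK members' UMIs and 13.9% of the PBS members' UMIs. The 7 AKK barcodes had a median of 36193 UMIs, and Cd74, the invariant chain of MHC class II in antigen-presenting cells, reached 485 UMIs in 1 of them. Of the 2 PBS barcodes, 1 was also Cd74-high, with 374 UMIs, and the other carried the mast cell proteases Mcpt1 and Cma2. Counts over gene lists are therefore given for all members and for the members led by neutrophil markers, set against Siglecf-zero neutrophils treated the same way. That split was chosen after seeing the data. Levels of single genes are those of neutrophil-led barcodes unless all members are named. The 11 markers, among them S100a8, S100a9, Cxcr2, Retnlg, Mmp9 and Slpi, and the 55 others decided which barcodes were kept. Their levels in neutrophil-led barcodes are therefore descriptions only.

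**Figure D1:**
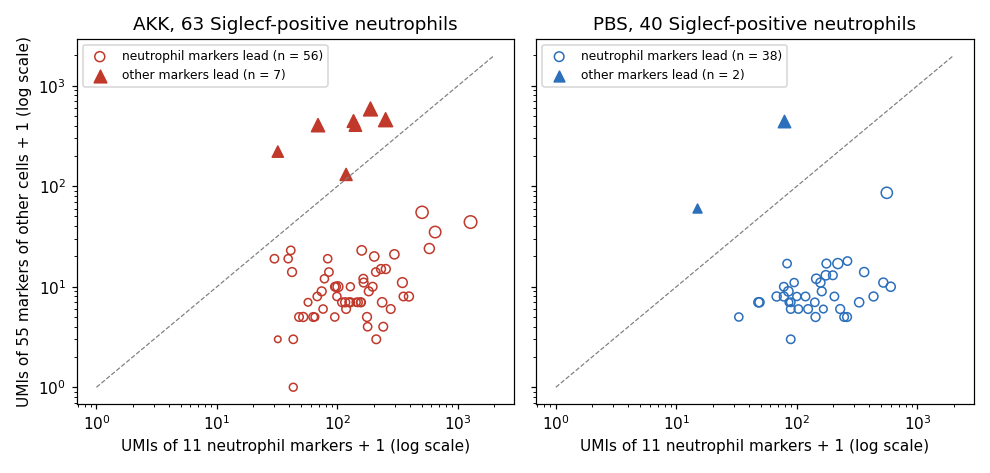
UMIs of 11 neutrophil markers (x axis, log scale) against UMIs of 55 markers of other cell types (y axis, log scale) in each Siglecf-positive barcode, AKK left and PBS right, with larger symbols for deeper barcodes. Circles below the dashed line of equality are the 56 AKK and 38 PBS members led by neutrophil markers, and triangles above it the 7 AKK and 2 PBS members led by other markers.

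Most defining genes of eosinophils, the other granulocyte that carries Siglecf, had few or no transcripts in the members, and the selection itself limited 5 of them. Epx, eosinophil peroxidase, and Alox15 had 0 UMIs in all 63 AKK and all 40 PBS members, which allows a share with a UMI of up to 4.76% in AKK and 7.5% in PBS, and both were among the genes of the selection. Car4, a carbonic anhydrase and another gene of the selection, had 63 UMIs in 9 AKK members, 27 of them in 1 cell, and 4 UMIs in 3 PBS members. Major basic protein, Prg2, also a gene of the selection, had 0 UMIs in AKK and 4 in PBS, and Il5ra, the IL-5 receptor chain, 0 in AKK and 1 in PBS. Of 14 eosinophil markers, 8 were detected in the members of each library. Over the neutrophil-led barcodes these markers, the 5 genes of the selection among them, were summed for members against Siglecf-zero neutrophils. The sums were 844 against 719 CPM (counts scaled to 1e6 UMIs) in AKK and 1115 against 1046 CPM in PBS. Such a sum can rest on a single marker and does not show the level of each. In the 2 PBS members led by other markers, 1 of the 14 was detected and gave all 278 CPM. In the sum of AKK members, 59 UMIs were of Car4, 27 of them in 1 cell. Of the markers outside the selection, 3 could be compared in neutrophil-led barcodes and 2 were higher in members by at least 1.5-fold in both libraries, Cebpe, a factor of granulocyte maturation in general, and Adgre4, with a median log2 ratio over the 3 of 0.85 in AKK and 1.66 in PBS. Over all members 1 of 5, Cebpe, was higher. Barcodes with at least 2 of the 5 eosinophil genes, which the selection left out, numbered 16 in AKK and 44 in PBS, and Siglecf was found in 18.8% of them in AKK and 20.5% in PBS. Prss2 had 0 UMIs in these barcodes.

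Siglecf itself was sparse. Exactly 2 UMIs, the threshold, were found in 35 of 63 AKK members and 27 of 40 PBS members, and the highest count was 10 in AKK and 7 in PBS. Just outside the threshold stood 123 AKK and 86 PBS neutrophils with 1 Siglecf UMI that met every other part of the selection. A further 2527 AKK and 1895 PBS neutrophils had 0 UMIs, which at these depths does not show that the gene was off. Members were deeper than Siglecf-zero neutrophils, with a median of 5617 against 4370 UMIs in AKK and 6072 against 5125 UMIs in PBS. Their median mitochondrial share was 0.761% against 0.393% in AKK and 0.733% against 0.565% in PBS, and its part in the results was not tested.

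The share of Siglecf-positive cells among neutrophils differed between the libraries by less than counting error. They were 2.32% (exact 95% interval 1.79 to 2.96) of 2713 neutrophils that met the other criteria in AKK and 1.98% (1.42 to 2.69) of 2021 in PBS. The AKK share minus the PBS share was 0.343 percentage points, with an interval of -0.523 to 1.17 that covers counting error only. Of all barcodes that passed the gene and mitochondrial filters they were 0.967% in AKK and 0.828% in PBS. Neutrophils were also thinned to 2441 UMIs, which left out 286 shallower ones in AKK and 187 in PBS. The thinned share with at least 2 Siglecf UMIs was 0.820% in AKK and 0.626% in PBS. With at least 1 Siglecf UMI it was 4.01% in AKK and 3.44% in PBS. In Cd3e barcodes, T cells that should lack the gene, the thinned share was 0.282% in AKK and 0.0635% in PBS. Before thinning, Siglecf was found in 1.20% of 664 AKK and 0.350% of 286 PBS Cd3e barcodes, whose median depths were 9962 and 10669 UMIs.

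Members were then set against Siglecf-zero neutrophils of the same library. Because both sets were drawn on the same UMIs, all these ratios are descriptions and none was tested. A gene was called higher or lower when the ratio of CPM + 5 passed 1.5-fold in the same direction in both libraries, among genes with at least 20 UMIs in the 2 sums. Over all barcodes, 528 of 12682 genes (4.16%) were higher in members and 1188 (9.37%) lower. Among neutrophil-led barcodes, 1259 of 10410 genes (12.1%) were higher and 681 (6.54%) lower. A count from a gene list near these shares says nothing about the list. With Siglecf-zero neutrophils weighted to the depths of the members in 4 classes, 519 genes were higher and 1244 lower over all barcodes. Scaling by the median ratio of genes with at least 10 UMIs in both sums moved all log2 ratios by -0.16 in AKK and -0.14 in PBS over all barcodes and gave 335 higher and 1494 lower. In neutrophil-led barcodes that scaling moved them by -0.42 in AKK and -0.25 in PBS and gave 595 higher and 1274 lower, so which direction holds more genes there depends on the scaling. Among the genes described below as higher in neutrophil-led members, Il23a, Ebi3, Mmp9 and Egr3 no longer passed 1.5-fold in both libraries under it, whereas Prss2, Ltc4s, Ptgs1, Gpc3, Gpr171, Clec4n, Clec5a, Hic1, Cebpe, Abca1 and Pmaip1 did. Intervals of ratios treat UMIs as independent, and a few cells often held many of a gene's UMIs, so they understate the error.

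The secreted factors Csf1 and Il23a were higher over all members, with larger ratios in PBS than in AKK, a difference that was not tested. Csf1 encodes the growth factor that sustains macrophages. Over all members Csf1 stood at 313 against 202 CPM in Siglecf-zero neutrophils of AKK, and at 494 against 172 CPM in those of PBS. In neutrophil-led barcodes it was 494 against 378 CPM in AKK, a ratio of 1.31 (95% interval 1.12 to 1.51), and 562 against 262 CPM in PBS, a ratio of 2.15 (1.79 to 2.55). The AKK ratio lies below 1.5-fold, so Csf1 was called higher over all members but not in neutrophil-led ones, where median-of-ratios scaling brought its AKK log2 ratio to -0.030. Il23a, the p19 subunit specific to the cytokine IL-23, passed in both. In neutrophil-led barcodes Il23a was 195 against 119 CPM in AKK, a ratio of 1.64 (1.28 to 2.07), and 342 against 144 CPM in PBS, a ratio of 2.37 (1.88 to 2.96). It was detected in 15 of 56 AKK and 21 of 38 PBS members.

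Among 20 measured cytokines, the neutrophil-led members were higher in 2 and lower in 4. Beside Il23a the higher one was Ebi3, the beta subunit of IL-27, with a ratio of 1.63 (0.997 to 2.54) in AKK and 2.92 (1.78 to 4.56) in PBS. Lower were Il6, Il12a, Il15 and Osm. Il15, a growth factor for NK cells and memory T cells, stood at 67.5 against 471 CPM in AKK and 69.2 against 255 CPM in PBS, and Osm, an IL-6 family cytokine, at 0.401 of the Siglecf-zero level in AKK and 0.400 in PBS. The most abundant inflammatory genes differed little. Il1b was 7040 against 8790 CPM in AKK and 8598 against 7370 CPM in PBS, and the neutrophil-attracting chemokine Cxcl2 was 18393 against 20849 CPM in AKK and 24753 against 21588 CPM in PBS. None of the 15 measured chemokines was higher and 2, Ccl6 and Cxcl3, were lower, neither of which passed over all members, where 1 of 17 was higher and 5 were lower. Over all members, 5 cytokines were higher (with Il1a, Il1rn and Tnfsf13b) and 6 lower.

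Prss2 showed 1 of the steepest differences. It encodes an anionic trypsinogen of the exocrine pancreas, and its reads can be shared with near-identical trypsinogen genes, so its identity is uncertain to that extent. In neutrophil-led barcodes Prss2 was 117 CPM in members, 48.7 CPM in neutrophils with 1 Siglecf UMI and 12.1 CPM in Siglecf-zero neutrophils of AKK. In PBS Prss2 was 114 CPM in members, 56.4 CPM with 1 Siglecf UMI and 10.8 CPM in Siglecf-zero neutrophils. The ratio of members to Siglecf-zero neutrophils was 9.68 (6.69 to 13.8) in AKK and 10.6 (6.68 to 16.3) in PBS. It was found in 9 of 56 AKK members, 16.1%, against 1.90% of Siglecf-zero neutrophils, and in 6 of 38 PBS members, 15.8%, against 1.73%. In Cd3e barcodes, with median depths of 9962 and 10669 UMIs, Prss2 was found in 0.904% in AKK and 0.350% in PBS. Thinned to 2441 UMIs the member and Siglecf-zero shares were 13.1% and 1.36% in AKK and 10.7% and 1.25% in PBS. Over all members the ratios were 10.4 in AKK and 13.4 in PBS. A single cell held 16 of the 45 UMIs in AKK and another 18 of the 28 in PBS. Of the 18 pancreatic enzyme genes listed, Prss2 was the only one of 2 measured to pass the threshold. Try5 and Prss1 had 0 UMIs in all members, and the elastase gene Cela1 had 4 in AKK and 0 in PBS.

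Several genes for lipid mediators were among the higher genes. Of 11 measured eicosanoid genes, 4 were higher and 1 lower over all members, and 3 were higher and 1 lower in neutrophil-led ones. The list's median log2 ratio in neutrophil-led barcodes was 0.64 in AKK and 0.20 in PBS, against 0.19 in AKK and 0.11 in PBS over all measured genes, and median-of-ratios scaling brought it to 0.29 in AKK and -0.022 in PBS. Ltc4s, which conjugates glutathione to leukotriene A4 to make the cysteinyl leukotriene C4, was 96.1 CPM in members, 52.2 CPM with 1 Siglecf UMI and 7.90 CPM in Siglecf-zero neutrophils of AKK. In PBS Ltc4s was 93.6 CPM in members, 52.2 CPM with 1 Siglecf UMI and 11.5 CPM in Siglecf-zero neutrophils. Its ratio of members to Siglecf-zero neutrophils was 12.2 (7.95 to 18.3) in AKK and 8.17 (4.96 to 13) in PBS, and over all members 9.05 in AKK and 7.21 in PBS. Cd3e barcodes held 2.19 CPM of Ltc4s in AKK and 2.08 CPM in PBS, and C1qa barcodes, macrophages, held 49.6 CPM in AKK and 39.9 CPM in PBS.

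Ptgs1 makes prostaglandin H2, the precursor of prostaglandins and thromboxane. It was 101 against 19.3 CPM in AKK, a ratio of 5.24 (3.61 to 7.45), and 122 against 24.3 CPM in PBS, a ratio of 5.03 (3.31 to 7.40), and was detected in 22 of 56 AKK and 11 of 38 PBS members. Over all members its ratios were 3.38 in AKK and 4.53 in PBS. Neutrophils with at least 10 UMIs of granule genes, taken whatever their Siglecf count, also held Ptgs1, at 90.2 CPM in AKK and 64.0 CPM in PBS. Their Ltc4s stood at 1.07 CPM in AKK and 5.44 CPM in PBS. The other gene of the list that passed in neutrophil-led barcodes, Ptges2, rested on 3 UMIs in each library. Alox5, the 5-lipoxygenase that starts leukotriene synthesis, was 197 against 88.9 CPM in AKK and 134 against 88.4 CPM in PBS, and was called higher over all members only. Its partner Alox5ap was lower, at 0.561 (0.447 to 0.695) of the Siglecf-zero level in AKK and 0.571 (0.450 to 0.715) in PBS.

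Gpc3, a cell-surface heparan sulphate proteoglycan known as a marker of hepatocellular carcinoma, was 52.0 against 4.61 CPM in AKK and 110 against 7.14 CPM in PBS in neutrophil-led barcodes. The ratio was 11.3 (6.27 to 19.6) in AKK and 15.4 (9.42 to 24.5) in PBS, from 8 of 56 AKK and 6 of 38 PBS members, and over all members it was 15.4 in AKK and 21.1 in PBS. A single PBS cell held 14 Gpc3 UMIs, and the next PBS cell held 5. Barcodes with at least 2 UMIs each of the epithelial keratins Krt8 and Krt18 held 0.791 CPM of Gpc3 in AKK and 3.58 CPM in PBS, below the members of either library. In the members, Alb, Apoa1, Ttr and Afp, genes of hepatocytes and hepatic tumours, had 0 UMIs, and the 7 markers of tumour, epithelial and liver cells summed to 39.0 against 65.3 CPM in neutrophil-led barcodes of AKK and 110 against 73.6 CPM in those of PBS.

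**Figure D2:**
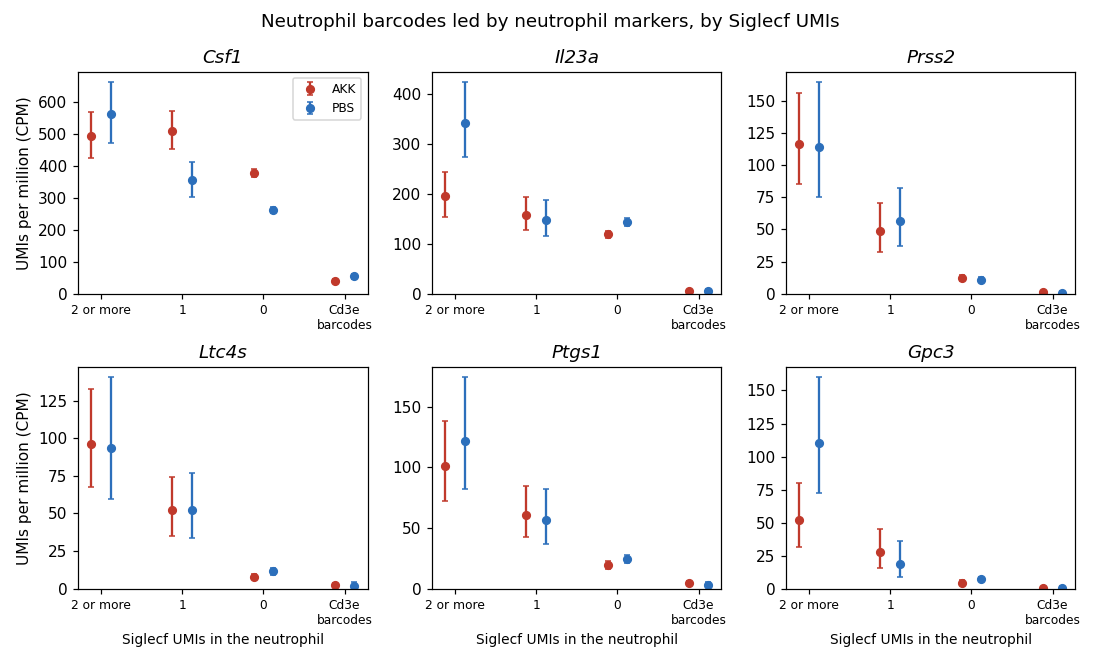
CPM (y axis, from 0) of 6 genes in neutrophil-led neutrophils with 2 or more, 1 or 0 Siglecf UMIs and in Cd3e barcodes (x axis), AKK in red and PBS in blue, with exact Poisson 95% intervals that cover counting error only. In both libraries Prss2, Ltc4s, Ptgs1 and Gpc3 are highest at 2 or more UMIs, intermediate at 1 and lower at 0, while Csf1 in AKK is alike at 2 or more and at 1 UMI (494 and 510 CPM).

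These 6 genes were not carried by the same cells throughout. Among the 56 neutrophil-led AKK members, 6 held none of the 6 genes, 14 held 1, 21 held 2, 8 held 3, 6 held 4 and 1 held 5. Among the 38 PBS members, 5 held none, 8 held 1, 10 held 2, 9 held 3, 3 held 4, 1 held 5 and 2 held all 6. Csf1 and Il23a were found together in 11 of 56 AKK and 18 of 38 PBS members, and Ltc4s with Ptgs1 in 10 AKK and 5 PBS members. Prss2 and Gpc3 shared 0 AKK and 3 PBS cells. Shallow barcodes miss transcripts, so a gene not found in a cell is not shown to be off.

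Of 23 measured activating and inhibitory surface receptors, Clec4n and Clec5a were higher in neutrophil-led members and 4 were lower, and over all members the same 2 were higher and 2 lower. A share of 2 in 23 is below the 12.1% over all genes, so the genes are described singly. Clec4n, Dectin-2, a receptor for fungal and mycobacterial mannans, was 1133 against 401 CPM in AKK and 920 against 406 CPM in PBS. Clec5a, a receptor that signals through DAP12, was 598 against 285 CPM in AKK, a ratio of 2.10 (1.83 to 2.40), and 651 against 280 CPM in PBS, a ratio of 2.33 (1.97 to 2.73). Clec4n was found in 48 and Clec5a in 47 of 56 AKK members. The inhibitory Fc receptor Fcgr2b stood at 0.400 of the Siglecf-zero level in AKK and 0.562 in PBS, the inhibitory lectin Clec12a at 0.364 in AKK and 0.478 in PBS, and Fcgr4 and Pirb were lower in neutrophil-led members but did not pass over all members. Over all cells with at least 1 Siglecf UMI, the Clec12a log2 ratio was 0.079 in PBS. Apart from Siglecf, none of the 5 measured genes of the Siglec family passed in neutrophil-led members. Cd33 was 197 against 341 CPM in AKK and 395 against 492 CPM in PBS, and Siglece 184 against 131 CPM in AKK and 138 against 160 CPM in PBS.

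Proteases and their inhibitors split in both directions. Of 21 measured in neutrophil-led barcodes, 4 were higher and 9 lower, with a median log2 ratio of -0.54 in AKK and -0.56 in PBS, and over all members 3 were higher and 6 lower. Mmp9, gelatinase B, was 1117 against 641 CPM in AKK and 1021 against 619 CPM in PBS. Mmp14, a membrane-anchored collagenase, had a ratio of 2.41 (1.35 to 4.04) in AKK and 5.05 (2.95 to 8.20) in PBS, but did not pass over all members, where its ratios were 1.39 in AKK and 1.55 in PBS. Adamdec1, a metalloprotease of tissue myeloid cells, was 171 against 4.28 CPM in AKK, where 1 cell held 28 of 66 UMIs, and 32.6 against 11.5 CPM in PBS, where 1 cell held 7 of 8. The lower genes included Adam8, at 0.327 of the Siglecf-zero level in AKK and 0.283 in PBS, the leukocyte protease inhibitor Slpi, at 0.636 in AKK and 0.187 in PBS, which did not pass over all members, and the stefin Stfa2l1, at 0.265 in AKK and 0.142 in PBS. Stefin genes are near-identical copies, so which of them was counted is uncertain.

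Of 38 measured transcription factors, Cebpe, Pparg, Egr3 and Hic1 were higher in neutrophil-led members and 4 were lower, against 12.1% higher and 6.54% lower over all genes. Over all members 3 of 39 were higher and 7 lower. Hic1, a zinc-finger repressor, was 64.9 against 19.98 CPM in AKK and 93.6 against 21.1 CPM in PBS. Cebpe, which drives late granulocyte maturation, had a ratio of 2.47 (1.24 to 4.48) in AKK and 4.32 (2.00 to 8.36) in PBS. Egr3, an early response factor, was 268 against 99.8 CPM in AKK and 97.7 against 60.2 CPM in PBS. Pparg did not pass over all members. The lower factors were Nfil3, which did not pass over all members, Rara, Rxra and the fatty acid receptor Ppard, which stood at 0.422 of the Siglecf-zero level in AKK and 0.341 in PBS. Xbp1, a factor of the unfolded protein response, was 431 against 454 CPM in AKK and 529 against 630 CPM in PBS.

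Abca1, a cholesterol exporter, was higher at 610 against 296 CPM in AKK and 553 against 287 CPM in PBS, and was the only 1 of 15 measured lipid-handling genes to be higher in neutrophil-led members, with 2 lower. Over all members 3 of 16, Abca1, Cd36 and Acsl1, were higher and 3 lower. Pmaip1, the pro-apoptotic protein Noxa, was the only 1 of 22 survival and death genes to pass, with ratios of 2.37 (1.90 to 2.93) in AKK and 2.11 (1.56 to 2.79) in PBS. Over all members Bcl2a1a and Bcl2a1d, near-identical copies, passed too. Of 23 lysosomal genes, 2 were higher and 2 lower in neutrophil-led members, and 0 were higher and 1 lower over all members. The share higher is below the 12.1% over all genes.

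Outside the lists, the genes with the steepest ratios and at least 50 UMIs included Gpr171, Gpc3, Zdhhc14 and Rasgef1b in neutrophil-led barcodes. Gpr171, a G protein-coupled receptor, was 93.5 against 10.2 CPM in AKK, a ratio of 9.16 (6.05 to 13.6), and 114 against 9.75 CPM in PBS, a ratio of 11.7 (7.34 to 18.1). Zdhhc14, a palmitoyltransferase, had ratios of 6.45 (5.12 to 8.06) in AKK and 4.55 (3.36 to 6.05) in PBS, and Rasgef1b, a guanine nucleotide exchange factor induced by Toll-like receptors, of 4.36 (3.54 to 5.32) in AKK and 8.13 (6.52 to 10.1) in PBS. Over all members Abca13, Med12l, Gfi1b, Itgae and Plet1 were among the steepest. Abca13, a large ABC transporter, was 1073 against 94.1 CPM in neutrophil-led AKK members, where 1 cell held 128 of 413 UMIs, and 480 against 162 CPM in PBS. Gfi1b, a zinc-finger repressor of the erythroid and megakaryocyte lineages, had ratios of 6.53 (3.50 to 11.5) in AKK and 4.64 (2.23 to 8.74) in PBS. Plet1 was higher only through barcodes led by other markers, since its neutrophil-led ratio was 0.442 in AKK and 0.207 in PBS.

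Genes of mature circulating neutrophils were mostly lower. Of 15 measured, 9 were lower and 1 higher in neutrophil-led members, with a median log2 ratio of -1.08 in AKK and -1.14 in PBS. Over all members 7 were lower and 2 higher, with medians of -0.94 in AKK and -0.82 in PBS. S100a8 and S100a9 encode the calprotectin subunits, among the most abundant proteins of neutrophils. S100a8 was 6773 against 14295 CPM in AKK and 6954 against 15374 CPM in PBS, and S100a9 was 6905 against 15368 CPM in AKK and 6816 against 18247 CPM in PBS. Both stood below the Siglecf-zero level in each library and were still among the abundant transcripts of the members.

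Retnlg, a resistin-like gene of mature blood neutrophils, was 205 against 1423 CPM in AKK and 973 against 3486 CPM in PBS, where 1 cell held 152 of the members' 239 UMIs. Wfdc21 stood at 0.349 (0.257 to 0.462) of the Siglecf-zero level in AKK and 0.0944 (0.0568 to 0.148) in PBS. Ly6g, the antigen by which mouse neutrophils are usually sorted, had 0 UMIs in neutrophil-led members, against 16.1 CPM in Siglecf-zero neutrophils of AKK and 29.7 CPM in those of PBS. With 3 UMIs over the group as the most that a count of 0 allows, Ly6g was at least 2.07-fold lower in AKK and at least 2.43-fold lower in PBS. The chemokine receptor Cxcr2 was 283 against 546 CPM in AKK and 317 against 462 CPM in PBS, and was not called, since the PBS ratio of 0.688 misses the threshold.

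Granule proteases made before neutrophils leave the marrow were also lower, and the rule on Ngp, Camp and Ltf removes cells rich in them from both sets. Of 14 measured granule genes, 8 were lower and 1, Mmp9, was higher in neutrophil-led members, and over all members 9 were lower and Mmp9 was higher. Myeloperoxidase, Mpo, was 18.2 against 120 CPM in AKK and 12.2 against 70.4 CPM in PBS, and neutrophil elastase, Elane, 13 against 131 CPM in AKK and 8.14 against 49.4 CPM in PBS. These sums hold few member UMIs, and over all cells with at least 1 Siglecf UMI the PBS log2 ratios were 2.16 for Mpo and 1.08 for Elane. Several trafficking genes were lower as well. Of 19 chemotactic receptors and adhesion genes, 6 were lower and 0 higher in neutrophil-led members, and over all members 4 of 20 were lower and 2 higher. Among them were Cxcr4, Ccr2, Fpr1, Selplg, the P-selectin ligand, at 0.522 of the Siglecf-zero level in AKK and 0.537 in PBS, and the integrin Itgal, at 0.477 in AKK and 0.656 in PBS, of which Cxcr4, Fpr1 and Itgal did not pass over all members. The pattern receptors Tlr2, at 0.389 in AKK and 0.313 in PBS, and Cd14, at 0.425 in AKK and 0.647 in PBS, were the 2 lower genes of 18 in the NF-kB and Toll-like receptor list, of which only Tlr2 passed over all members. S100a6 stood at 0.247 in AKK and 0.255 in PBS, and Arg1, arginase 1, at 7.79 against 45.6 CPM in AKK and 12.2 against 80.4 CPM in PBS.

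**Figure D3:**
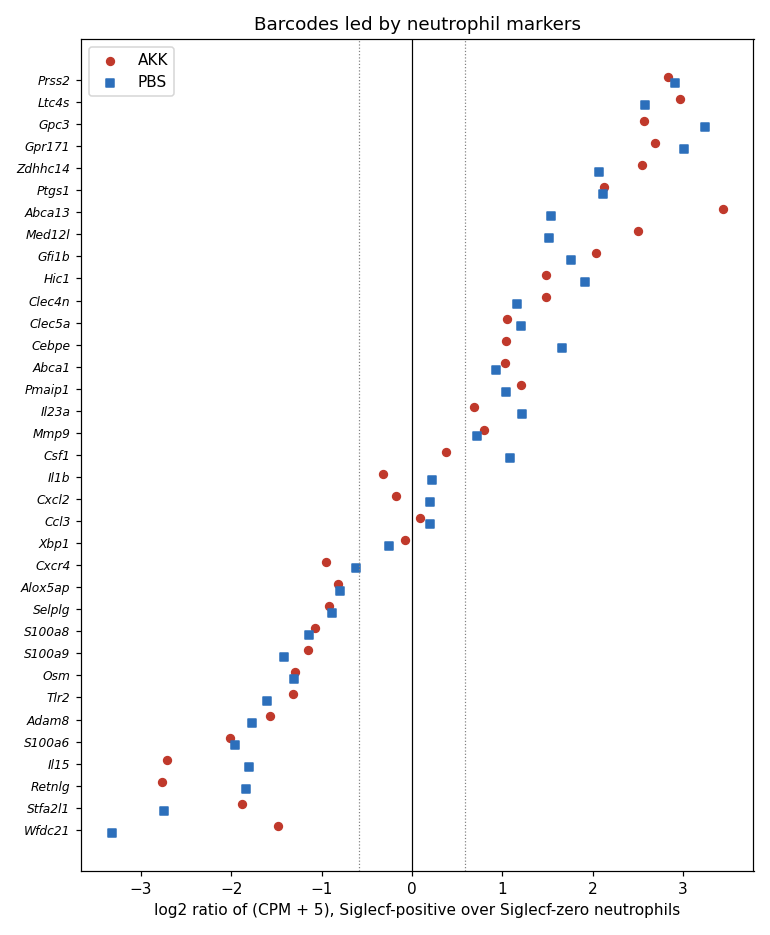
Log2 ratio of CPM + 5 of Siglecf-positive over Siglecf-zero neutrophils (x axis) for 35 genes (y axis) in neutrophil-led barcodes, AKK as circles and PBS as squares, with dotted lines at 1.5-fold. Prss2, Ltc4s, Gpc3, Gpr171 and Ptgs1 lie beyond 2 on the log2 scale in both libraries, while Retnlg, Il15, Stfa2l1 and Wfdc21 lie beyond -1 in both.

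Genes that characterise Siglecf-high neutrophils of mouse lung tumours were compared next. Of the 18 listed and measured, 3 (Csf1, Ltc4s and Clec5a) were higher and 1 (Adam8) lower over all members, a share above the 4.16% of all genes called higher, and the list's median log2 ratio was 0.15 in AKK and 0.42 in PBS against -0.031 in AKK and -0.084 in PBS over all genes. In neutrophil-led members 2 (Ltc4s and Clec5a) were higher and 3 (Cstb, Cxcr4 and Adam8) lower, with a median log2 ratio of 0.18 in AKK and 0.30 in PBS, against 0.19 in AKK and 0.11 in PBS over all genes, and the share higher was close to the 12.1% of all genes. The chemokine gene Ccl3 was 3258 against 3070 CPM in AKK and 2816 against 2451 CPM in PBS. Vegfa, the angiogenic growth factor, was 278 against 202 CPM in AKK and 269 against 213 CPM in PBS, and Bhlhe40, a transcriptional repressor, 577 against 599 CPM in AKK and 659 against 648 CPM in PBS. Of 10 genes of terminal tumour neutrophils, none was higher and 1, Cxcr4, was lower, at 182 against 357 CPM in AKK and 175 against 272 CPM in PBS. Cd274, which encodes PD-L1, was 803 against 1478 CPM in AKK and 1103 against 1132 CPM in PBS.

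Within Siglecf-positive neutrophils, AKK was then set against PBS, as 1 library against 1 and with no test. Among genes with at least 20 UMIs in the 2 sums, 1675 of 6006 (27.9%) were higher by at least 1.5-fold in AKK members and 737 (12.3%) lower. In neutrophil-led members 996 of 4581 (21.7%) were higher and 530 (11.6%) lower, with a median log2 ratio of 0.12 over all measured genes. The same comparison of Siglecf-zero neutrophils, which have many more UMIs, gave 399 of 12582 genes higher (3.17%) and 271 lower (2.15%) in neutrophil-led barcodes, and 691 of 14885 higher (4.64%) and 265 lower (1.78%) over all barcodes, where median-of-ratios scaling gave 374 higher and 463 lower. Shares this large in so few cells set the scale on which single genes should be read.

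Siglecf-positive neutrophils of AKK held more transcripts of interferon-induced genes, as the Siglecf-zero neutrophils of AKK did. Of 13 measured genes of the interferon-gamma response, 10 were higher by at least 1.5-fold in neutrophil-led AKK members, 0 were lower, and all 13 lay above 0, with a median log2 ratio of 0.97. Over all members 11 of 15 were higher, with a median of 1.16. In neutrophil-led Siglecf-zero neutrophils 15 of 18 were higher, with a median of 0.95. Gbp2, an interferon-induced GTPase, was 346 CPM in AKK members and 28.5 CPM in PBS members, a ratio of 12.1 (5.73 to 30.8). It was found in 25 of 56 AKK and 7 of 38 PBS members.

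In Siglecf-zero neutrophils Gbp2 was 440 CPM in AKK and 89.0 CPM in PBS, a ratio of 4.95 (4.58 to 5.35). Gbp genes are close copies of each other, so reads may be shared between them. Ifi47, an immunity-related GTPase, was 70.1 CPM in AKK members and 8.14 CPM in PBS members, from 27 UMIs in AKK and 2 in PBS. Cxcl10, a chemokine that attracts CXCR3-bearing T cells, was 291 CPM in AKK members and 146 CPM in PBS members, a ratio of 1.99 (1.35 to 2.98). Whether any of these ratios differs between both kinds of neutrophil was not tested.

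Several genes of antigen processing were also higher in AKK members. Of 12 measured MHC class I genes, 7 were higher in neutrophil-led AKK members and 0 lower, with a median log2 ratio of 0.76, and in Siglecf-zero neutrophils 8 of 13 were higher, with a median of 0.63. Over all members 6 of 13 were higher, with a median of 0.57. That median was 0.65 with a Siglecf minimum of 1 UMI and 0.075 with a minimum of 3. The peptide transporter Tap1 was 85.7 CPM in AKK members and 36.6 CPM in PBS members, a ratio of 2.34 (1.10 to 5.56), and the immunoproteasome subunit Psmb9 was 75.3 CPM in AKK members and 20.3 CPM in PBS members, a ratio of 3.70 (1.42 to 12.3). B2m, the light chain of class I molecules, differed little in members, at 1486 CPM in AKK and 1286 CPM in PBS. Type I interferon genes were less uniform. Of 12 measured in neutrophil-led members 6 were higher and 1, Isg15, was lower, with a median log2 ratio of 0.54, and over all members 5 of 13 were higher and 3 lower, with a median of -0.12. The all-member median turned to 0.57 with a Siglecf minimum of 1 UMI and to 2.65 with a minimum of 3. The AKK to PBS ratio of Isg15 over all members was 0.481, but its log2 ratio was 0.57 with a Siglecf minimum of 1 UMI and 1.40 with a minimum of 3 UMIs.

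Several genes that set members apart within each library were close to equal between AKK and PBS in neutrophil-led members, but lower in AKK over all members. In neutrophil-led members the AKK to PBS ratio was 1.03 (0.626 to 1.71) for Prss2, 1.03 (0.594 to 1.81) for Ltc4s, 0.830 (0.502 to 1.38) for Ptgs1 and 0.879 (0.702 to 1.10) for Csf1. Over all members it was 0.697 (0.425 to 1.16) for Prss2, 0.798 (0.480 to 1.36) for Ltc4s, 0.593 (0.361 to 0.983) for Ptgs1 and 0.634 (0.509 to 0.791) for Csf1, of which Ptgs1 and Csf1 passed 1.5-fold. Prss2 had the same UMIs in both sets, 45 in AKK and 28 in PBS, so its ratio changed through the totals only. Barcodes led by other markers held 41.5% of the AKK members' total UMIs and 13.9% of the PBS members'. Gpc3 was lower in AKK, at 52.0 CPM in AKK members and 110 CPM in PBS members, a ratio of 0.473 (0.251 to 0.875). Much of the PBS level came from 1 cell with 14 Gpc3 UMIs. The next PBS cell held 5, and no AKK member held more than 7. Il23a was 195 CPM in AKK members and 342 CPM in PBS members, a ratio of 0.570 (0.412 to 0.788), and over all members the ratio was 0.423 (0.308 to 0.581). In Siglecf-zero neutrophils the Il23a ratio was 0.826 (0.761 to 0.896).

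Most genes of the NF-kB and Toll-like receptor list lay below the PBS level in AKK members, whereas chemokines went in both directions. Of 18 NF-kB and Toll-like receptor genes, 17 lay below 0 in neutrophil-led members, with a median log2 ratio of -0.29, although only 2 passed 1.5-fold, a share close to the 11.6% over all genes. Over all members 8 passed, with a median of -0.55, against 12.3% of all genes. Of 10 measured chemokines, 3 were higher and 2 lower in neutrophil-led AKK members, with a median of 0.30, and over all members 3 of 14 were higher and 5 lower, with a median of -0.11. The lipopolysaccharide co-receptor Cd14 was 636 CPM in AKK members and 1384 CPM in PBS members, a ratio of 0.460 (0.389 to 0.544), and in Siglecf-zero neutrophils the ratio was 0.701 (0.685 to 0.716). Of 10 measured cytokines, 5 were lower in neutrophil-led AKK members, namely Il1a, Il23a, Ebi3, Tnf and Tnfsf14, and 0 higher, and over all members 6 of 11 were lower and 0 higher. Tnf was 470 CPM in AKK members and 741 CPM in PBS members, and Il1a was 912 CPM in AKK members and 1408 CPM in PBS members. In Siglecf-zero neutrophils the ratio was 1.03 for Tnf and 0.967 for Il1a. The neutrophil chemokine Cxcl1 was 26 CPM in AKK members and 195 CPM in PBS members, from 10 UMIs in AKK and 48 in PBS. Olr1, the receptor for oxidised LDL, was 803 CPM in AKK members and 1803 CPM in PBS members, a ratio of 0.445 (0.384 to 0.516).

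Retnlg was 205 CPM in AKK members and 973 CPM in PBS members, where 1 cell held most of its UMIs. In Siglecf-zero neutrophils Retnlg was 1423 CPM in AKK and 3486 CPM in PBS. Some ratios rested on 1 cell. Spon1, among the steepest genes higher in AKK members, had 86 of its 86 AKK UMIs in 1 neutrophil-led cell, Hspa1a 49 of 52 and Nrip1 139 of 176. Spp1, osteopontin, was 772 CPM in AKK members and 110 CPM in PBS members, with 121 of 297 AKK UMIs in 1 cell. Over all members the steepest genes lower in AKK, Mcpt1, Cma2 and Mcpt2, came from the single PBS barcode with mast cell proteases.

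**Figure D4:**
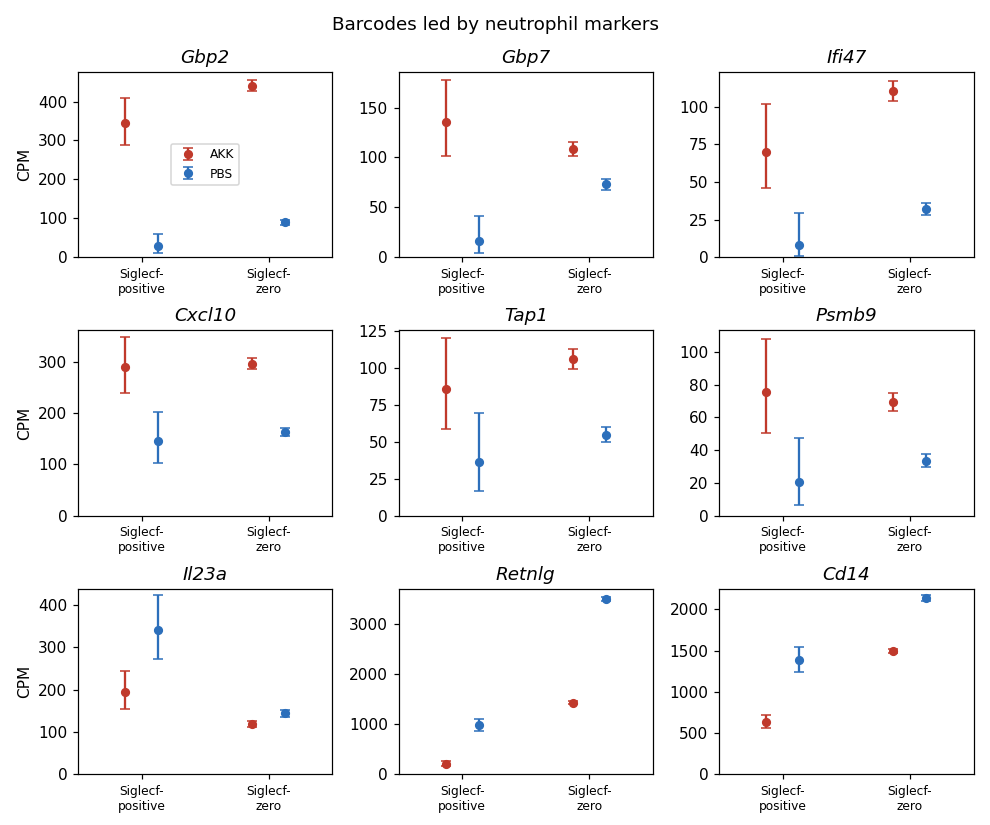
CPM (y axis, from 0) of 9 genes in Siglecf-positive and Siglecf-zero neutrophils led by neutrophil markers (x axis), AKK in red left of PBS in blue, with exact Poisson 95% intervals that cover counting error only. Gbp2, Gbp7, Ifi47, Cxcl10, Tap1 and Psmb9 lie higher in AKK in both kinds of neutrophil, and Il23a, Retnlg and Cd14 lie lower in AKK in both. A single cell held most of the Retnlg UMIs of the PBS members.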

How the data were processed

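Live CD45+ cells of liver tumours were captured on the 10x Genomics 3′ v3 platform, 1 library for AKK and 1 for PBS, per the labels' protocols. The deposited matrices hold whole-number UMI counts per gene (32285 gene rows) and barcode, with no normalization. Cell Ranger 7.1.0 is named in the matrices, per the file headers. Per the submitters' processing notes, build mm10 and Cell Ranger 5.0.1 were used. The sources used here do not say whether intronic reads were counted.

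UMIs were summed over barcodes within each library and divided by the summed total in units of 1e6 (CPM), with Python 3.11.15, numpy 2.4.6, scipy 1.17.1, pandas 2.3.3 and matplotlib 3.10.9. The library totals were 74495998 UMIs in AKK and 64731604 in PBS, and the members' totals 657844 in AKK and 285263 in PBS. Log2 ratios used CPM + 5, and a gene counted as called past 1.5-fold, among genes with at least 20 UMIs in the 2 sums compared. Ratios printed without a log are of CPM, with exact 95% intervals that cover counting error only. Shares have exact binomial intervals. The counting code was tested on simulated data.

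The members and the 37 gene lists were chosen with earlier results of these data known. Leaving out barcodes led by markers of other cells (11 neutrophil markers against 55 others in 7 lists) was chosen after seeing the data, as was its combination with median-of-ratios scaling. Beside list genes, the text names genes among the 12 highest and 12 lowest with at least 50 UMIs. Doublets were scored with scanpy 1.11.5, and the 350 AKK and 207 PBS barcodes with the highest scores, 5 AKK and 1 PBS members among them, were left out in an alternative only, because the automatic threshold marked 0.059% in PBS. These scores took in 7.94% of AKK members against 3.17% of AKK Siglecf-zero neutrophils, and 2.5% against 2.69% in PBS. The libraries shared 8 barcode sequences, 0 of them members. The features Mx1, Mx2, Clec7a and Amy2b were not analysed here. Some list genes that enter the counts are not reported by name here.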

Additional observations from a re-analysis of the deposited data

Results flagged for a closer look

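Over all members and all Siglecf-zero neutrophils, directions differed between compared sets for 5 of the genes screened. Neutrophil-led barcodes were not screened in this way, and the values here are those over all barcodes. In each case the difference was not tested. Hilpda, a lipid-droplet protein induced by hypoxia, had a log2 ratio of members to Siglecf-zero neutrophils of 0.67 in AKK and -0.83 in PBS, and a log2 ratio of AKK to PBS of 0.83 in Siglecf-positive and -0.67 in Siglecf-zero neutrophils. In AKK, 1 cell held 53 of its 171 member UMIs.

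Hspa1a, an inducible heat shock gene that also responds to tissue dissociation, had a log2 ratio of AKK to PBS of 2.46 in Siglecf-positive and -1.53 in Siglecf-zero neutrophils, with 49 of 53 AKK member UMIs in 1 cell. Tnfaip6, a hyaluronan-binding protein induced by TNF, stood at 3.17 in Siglecf-positive and -0.72 in Siglecf-zero neutrophils, from 68 UMIs in AKK and 2 in PBS members.

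The immunoglobulin genes Igkc and Igha had log2 ratios of AKK to PBS of -3.16 and -1.63 in Siglecf-positive neutrophils, against 2.40 for Igkc and 2.38 for Igha in Siglecf-zero neutrophils. A single PBS member held 3079 of 3204 Igkc and 619 of 663 Igha UMIs. In AKK, Igkc was found in 63 of 63 members, at no more than 57 UMIs in any of them.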

How the results depend on the processing

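The difference in share stayed between 0.194 and 0.621 percentage points under all 9 alternatives. With the barcodes led by other markers left out, 1259 genes were higher and 681 lower in members, 996 were higher in AKK members and 399 in AKK Siglecf-zero neutrophils. A Siglecf minimum of 1 UMI gave 307 higher and 679 lower in members, and a minimum of 3 gave 800 and 1898, with 1007 higher in AKK members. With each cell weighted alike, 1060 genes were higher in members and 275 in AKK Siglecf-zero neutrophils. With CPM + 1 the counts were 822 higher and 1928 lower in members and 1872 higher and 642 lower in AKK Siglecf-zero neutrophils, and with CPM + 20 they were 211 higher and 426 lower in members and 167 higher and 102 lower in AKK Siglecf-zero neutrophils. Median-of-ratios scaling gave 335 higher and 1494 lower in members and 374 higher and 463 lower in AKK Siglecf-zero neutrophils. Combined with neutrophil-led barcodes, which was chosen after seeing the data, it gave 595 higher and 1274 lower in members, 990 higher in AKK members and 352 higher in AKK Siglecf-zero neutrophils. In AKK against PBS members, a minimum of 50 UMIs gave 835 higher and 388 lower, and a minimum of 1 UMI 3909 and 2678.

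Sizes shifted more often than directions. Of 277 gene ratios and list medians, 146 were classed as moved with a Siglecf minimum of 1. In neutrophil-led barcodes 109 moved, and 147 with median-of-ratios scaling on top. Weighting cells alike moved 116, and CPM + 1 moved 0. Over all members the granule gene median went from -1.09 to -1.98 in AKK without doublets. In PBS it went from -0.95 to -0.36 with a Siglecf minimum of 1. Directions that turned, as log2 ratios, were few, at most 9 under any setting. Of members to Siglecf-zero neutrophils in neutrophil-led barcodes, Plet1 was -0.72 in AKK and -1.44 in PBS, Pltp -0.34 in AKK and -0.61 in PBS, and Hepacam2 -0.21 in PBS. With median-of-ratios scaling on top, Plet1 was -1.02 in AKK and -1.64 in PBS, Pltp -0.55 in AKK and -0.69 in PBS, Hepacam2 -0.25 in PBS, and in AKK Csf1 was -0.030, Il1r2 -0.12 and Siglecg -0.015. With a Siglecf minimum of 1, Hilpda was -0.18 in AKK, and in PBS Clec12a was 0.079, Mpo 2.16, Elane 1.08 and Prtn3 1.58. Man1a was -0.16 in PBS with a minimum of 3, and Hilpda -0.056 in AKK without doublets. Of AKK to PBS in members, Cd74 was -0.44 in neutrophil-led barcodes under either scaling. Without doublets Hspa1a was -0.38, Igkc 1.42 and Igha 2.14, and without any eosinophil gene Igkc was 1.46 and Igha 2.08. A Siglecf minimum of 1 gave Isg15 0.57, Hspa1a -0.54 and Igha 0.083. A minimum of 3 gave Isg15 1.40, Hspa1a -0.93, Igkc 1.29, Igha 2.13, Mcpt1 2.68 and Csf1 0.36, and weighting cells alike gave Csf1 0.0050. Apart from the settings that change which barcodes are used, the cause was not tested. No paired analysis was possible because each group is 1 library. Without replicates, and with 103 cells, only large differences can be described. No mean over animals and no variation between them can be given, and fewer transcripts cannot be told apart from shallower capture in single barcodes.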

Other observations

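Genes of hypoxia and glycolysis, which were not described above, differed little between Siglecf-positive and Siglecf-zero neutrophils. Of 21 measured in neutrophil-led barcodes, 0 were higher and 1, Ero1l, was lower, and over all members 0 of 22 were higher and 2 lower. In neutrophil-led barcodes the list had a median log2 ratio of -0.0037 in AKK and -0.39 in PBS. Between the libraries, 5 of 20 were higher in neutrophil-led AKK members and 0 lower, with a median of 0.20, near the 21.7% higher and the median of 0.12 over all genes, and over all members 3 of 21 were higher. None of the 14 measured endoplasmic reticulum stress genes passed 1.5-fold in both libraries. Of 17 iron and oxidative defence genes 0 were higher and 2 lower in neutrophil-led members, and over all members 1 was higher and 3 lower. Among the lower was Hmox1, haem oxygenase 1, at 36.4 against 80.4 CPM in AKK and 20.3 against 111 CPM in PBS.

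Adgre4, an adhesion receptor listed here as an eosinophil marker and also carried by monocytes and macrophages, was 10.4 against 3.51 CPM in neutrophil-led barcodes of AKK and 97.7 against 3.97 CPM in those of PBS, from 3 AKK and 6 PBS members. Cd38, an NAD-consuming ectoenzyme, was 101 CPM in AKK members and 48.8 CPM in PBS members led by neutrophil markers, whereas in Siglecf-zero neutrophils it was 15.5 CPM in AKK and 72.7 CPM in PBS. The Itgax transcript, the CD11c chain, was 184 CPM in AKK members and 85.5 CPM in PBS members, and in Siglecf-zero neutrophils 70.0 CPM in AKK and 61.8 CPM in PBS.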
